A study of Rattus norvegicus with 31 samples.

Results

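Collagen genes were read from 31 Affymetrix arrays of total RNA from rat testes. A gene was taken as a member of the collagen family where the array annotation gives a single symbol made of Col, a type number, the letter a and a chain number. That rule found 58 probe sets of 41 genes among the 14217 genes with 1 symbol on the array, and each gene was represented by its probe set of highest mean over the 31 arrays. All rats were LBNF1, 25 to 27 weeks old, and had received 6 Gy of radiation to the lower abdomen. In 6 arrays the rats had hormone ablation, meaning an antagonist of gonadotropin-releasing hormone together with flutamide, which blocks the androgen receptor, plus estradiol. In 11 arrays they had the same ablation alone, and in 14 arrays a sham treatment. The label of the estradiol arrays names supplementation with follicle-stimulating hormone while its list of compounds holds estradiol, and the group is called ablation plus estradiol here, as the series design does. The labels call the arrays biological replicates. Of the sham arrays, 10 are described as control testes and 4 as irradiated testes, although every title says irradiated.

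Collagens are secreted proteins in which 3 chains wind into a triple helix. Fibrillar types I, III and V form the fibrils of connective tissue, and type IV forms the network of basement membranes. Type VI makes beaded filaments between cells and fibrils, and the FACIT types attach to fibril surfaces. In the testis, peritubular myoid cells and Sertoli cells build the wall of the seminiferous tubule, where type IV collagen lies in the basement membrane and types I, III and VI lie around it. Fibroblast-like cells of the interstitium also make fibrillar chains.

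Before the results, 4 properties of the arrays bear on them. The 6 estradiol arrays come from a newer deposit than the other 25, so that deposit and estradiol cannot be told apart in any comparison that uses them. Array medians lay between -1.44 and -1.24 on the log2 scale. The second principal component, with 11.1% of the variance, also spread arrays within groups. It ran from 8.77 to 48.3 in estradiol arrays, from -25.4 to 24.8 in ablation arrays and from -43.7 to 28.6 in sham arrays. The mean of the meiotic and postmeiotic germ cell markers of each array ran from -3.11 to -2.51 in estradiol arrays, from -3.16 to 0.52 in ablation arrays and from -3.86 to 2.17 in sham arrays. The difference between the 3-prime and 5-prime control probe sets of Gapdh, a sign of RNA quality, was 0.30 to 0.90 in ablation arrays and -0.06 to 0.95 in sham arrays, and the estradiol arrays have no control values.

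Of the 41 collagen genes, 29 passed the filter on low values, which asks for a signal above the 40th percentile of its own array in at least 6 arrays. That level lay between -1.93 and -1.75. The 12 genes that did not pass were the fibrillar Col5a3, Col11a2 and Col24a1, the basement membrane Col4a4, the FACIT Col9a1, Col19a1 and Col20a1, and Col8a1, Col10a1, Col17a1, Col25a1 and Col7a1 of the remaining classes. They were not tested. By class, 8 of 11 fibrillar genes, 4 of 5 of type IV, 5 of 5 of type VI, 6 of 9 FACIT genes and 6 of 11 others passed. Levels are given as deposited signals on the log2 scale, and a level of 1 gene cannot be set against that of another, since each probe set has its own response.

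With hormone ablation, 13 of the 29 collagen genes fell, 4 rose and 12 did not pass the test against sham (limma, adjusted p under 0.05 over all 21269 probe sets tested). Among all 11379 genes tested, 12.8% were lower and 9.24% were higher. All 11 ablation arrays lay below every one of the 14 sham arrays for 7 collagens, namely Col1a1, Col1a2, Col3a1, Col5a2, Col4a1, Col6a1 and Col6a3, against 1.99% of all genes tested. The median log2 change over the 29 collagens was -0.28, beside 0.00 over all genes tested. When sham was limited to the 4 arrays whose description says irradiated, 9 of the 13 falls and 0 of the 4 rises were called. The 13 include Col12a1, which passed the filter through sham arrays alone (8 of 14) and is no support for the count. The 4 rises include Col9a3, above the filter level in 8 of 11 ablation and 3 of 14 sham arrays, which is no support for that count. In whole testes, fewer cells of a type and less RNA per cell cannot be told apart.

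**Figure D1:**
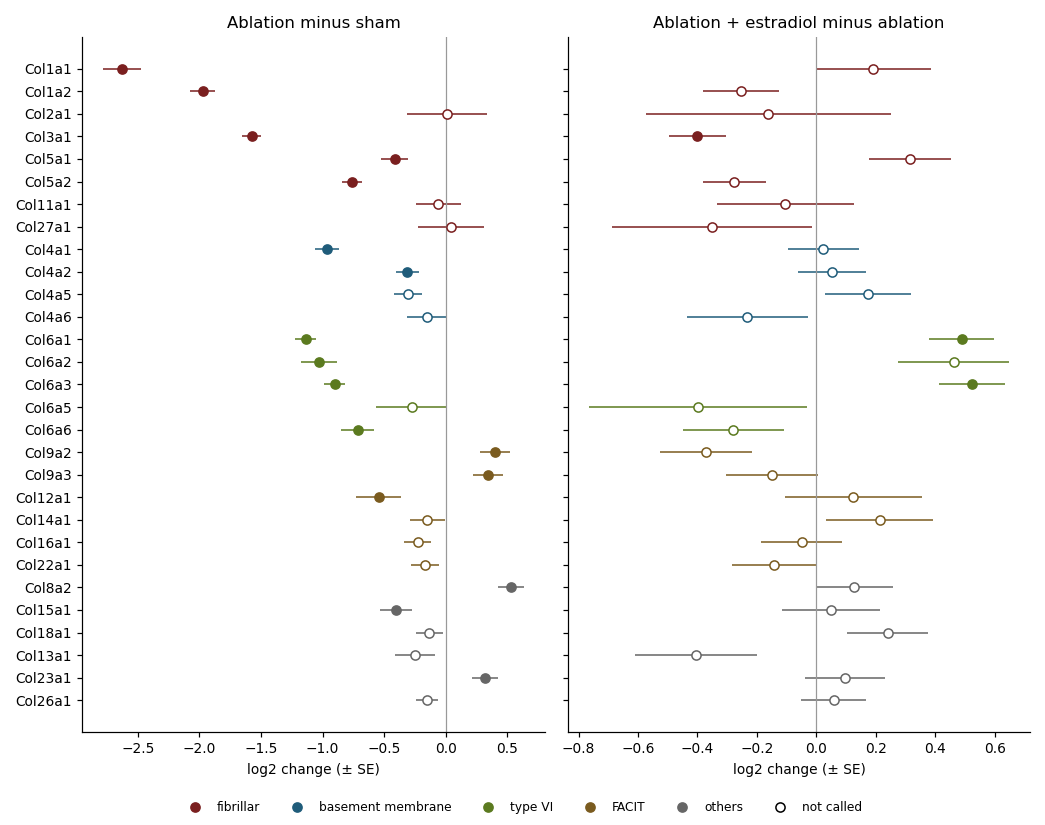
Log2 change with its standard error for the 29 tested collagens, one gene per row and coloured by class, for ablation minus sham (left) and ablation plus estradiol minus ablation (right, on a narrower axis). Filled points passed an adjusted p of 0.05: 13 lower and 4 higher on the left, and Col3a1 lower with Col6a1 and Col6a3 higher on the right.

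Among fibrillar chains, 5 of 8 tested fell with ablation and none rose, with a class median of -0.59. Col1a1 encodes the alpha-1 chain of type I collagen, of which the type I molecule holds a pair. Its signal was -1.04, -0.79 and -0.04 (lowest, median and highest) in estradiol arrays, -1.52, -0.90 and -0.27 in ablation arrays, and 0.99, 1.81 and 2.24 in sham arrays. Every array with ablation, with or without estradiol, lay below every sham array. The log2 change of ablation against sham was -2.63 ± 0.15 (SE, 11 against 14 arrays, limma adjusted p = 4.76e-16), which is 6.18-fold lower. Its other probe set gave -1.45, so that the size of the fall rests on the probe set. Col1a2, which encodes the alpha-2 chain of the same molecule, had -0.27, -0.15 and 0.01 in estradiol arrays, -0.53, 0.14 and 0.40 in ablation arrays and 1.50, 2.12 and 2.55 in sham arrays. Its change with ablation was -1.97 ± 0.10 (adjusted p = 1.13e-17), and -2.55 on its other probe set. Both chains of type I therefore fell, by sizes whose order depends on the probe sets compared.

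Col1a2 is the only chain of types I and III with an entry in the RefSeq promoter table used here, and its upstream region is shown as that of a chain that fell 3.93-fold. The 120 bases begin 250 before the annotated start, at chr4:33518307-33518426 of GRCr8, plus strand, and lie upstream of the annotated transcript. Capitals mark a CCAAT box read on the other strand and the letters TATAAA.
Col1a2 upstream region: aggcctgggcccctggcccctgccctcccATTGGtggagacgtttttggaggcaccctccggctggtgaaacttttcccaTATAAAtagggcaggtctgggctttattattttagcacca

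Col3a1 encodes the only chain of type III collagen, which forms mixed fibrils with type I in soft tissue. It had 0.40, 0.74 and 0.87 in estradiol arrays, 0.79, 1.06 and 1.32 in ablation arrays and 2.42, 2.70 and 2.93 in sham arrays. The change with ablation was -1.58 ± 0.08 (adjusted p = 1.94e-18), a 2.98-fold lower signal. Col5a2, the alpha-2 chain of type V, which starts fibrils of type I, had -1.0, -0.78 and -0.35 in estradiol arrays, -0.71, -0.41 and -0.30 in ablation arrays and -0.16, 0.31 and 0.67 in sham arrays. It fell by 0.76 ± 0.08 with ablation (adjusted p = 7.04e-09), and its other probe set gave -0.68. In the annotation Col3a1 and Col5a2 are neighbours with no protein-coding gene between them. Col5a1, the partner chain of type V, changed less, by -0.41 ± 0.11 (adjusted p = 0.00542), with overlapping arrays, and was not called when sham was limited to the 4 arrays described as irradiated (-0.30, adjusted p = 0.260). The cartilage chains Col2a1 and Col11a1 and the fibrillar Col27a1 did not pass the test, with changes of 0.01, -0.06 and 0.04. Col2a1 exceeded the filter level in only 2 of 6 estradiol, 5 of 11 ablation and 6 of 14 sham arrays.

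**Figure D2:**
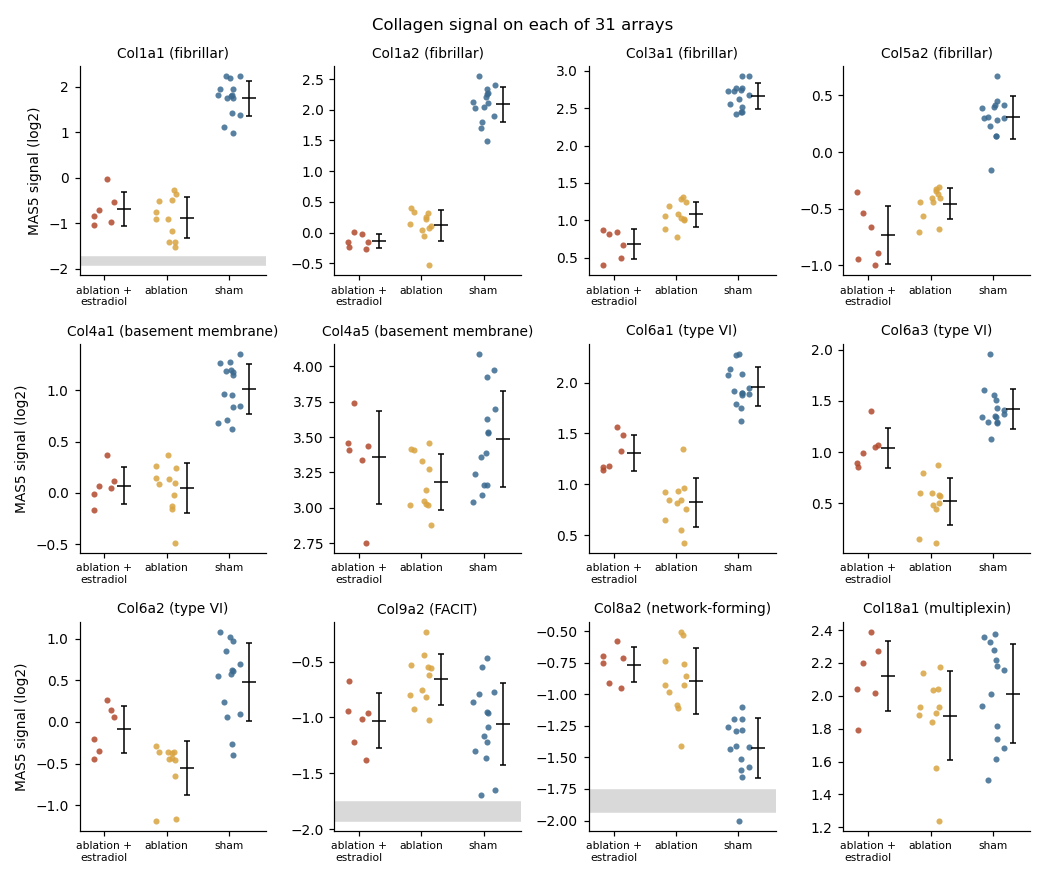
Deposited signal (log2) of 12 collagens on each array, with ablation plus estradiol (6 arrays), ablation (11) and sham (14) from left to right; each point is 1 array, the bar is the group mean with its SD, and the grey band is the range of filter levels where it falls within the axis. Each panel has its own vertical axis. For Col1a1, Col1a2, Col3a1, Col5a2, Col4a1 and Col6a1 all arrays of both ablation groups lie below every sham array, whereas Col8a2 is higher in both ablation groups and Col18a1 overlaps throughout.

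Of the 4 type IV chains tested, Col4a1 and Col4a2 fell with ablation and Col4a5 and Col4a6 did not pass the test. Col4a1 and Col4a2 encode the chains of the common type IV molecule. Col4a1 had -0.17, 0.06 and 0.37 in estradiol arrays, -0.49, 0.10 and 0.37 in ablation arrays and 0.63, 1.05 and 1.35 in sham arrays. It was 1.95-fold lower with ablation, a log2 change of -0.97 ± 0.10 (adjusted p = 5.48e-10), and its other probe set gave -0.94. Col4a2 had 0.46, 0.76 and 0.93 in estradiol arrays, 0.25, 0.75 and 1.08 in ablation arrays and 0.60, 0.98 and 1.41 in sham arrays. Its change was -0.31 ± 0.09 (adjusted p = 0.0125), and the ablation and sham arrays overlapped. When sham was limited to the 4 arrays whose description says irradiated, the call of Col4a2 was lost (adjusted p = 0.0894).

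The genes of these 2 chains lie head to head, and the 76 bases between their annotated starts are shown because the partners share them while their measured changes differed in size. They lie at chr16:84885521-84885596 of GRCr8 and are written on the Col4a1 strand. Capitals mark the letters GGGCGG, the binding motif of Sp factors, read on the other strand.
Col4a2 to Col4a1 spacer: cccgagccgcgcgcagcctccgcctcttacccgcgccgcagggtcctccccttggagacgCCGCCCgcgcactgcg

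Col4a5, a chain of the alpha-3, 4 and 5 and of the alpha-5 and 6 networks, had 2.75, 3.42 and 3.74 in estradiol arrays, 2.88, 3.12 and 3.46 in ablation arrays and 3.04, 3.46 and 4.09 in sham arrays. Its change with ablation was -0.30 ± 0.12 (adjusted p = 0.0587), and it was called lower in 7 of 31 fits without 1 array (adjusted p down to 0.0329, without sham replicate 4). Col4a6, its partner in the alpha-5 and 6 network, had -2.65, -1.88 and -1.15 in estradiol arrays, -2.90, -1.57 and -1.21 in ablation arrays and -1.83, -1.57 and -1.21 in sham arrays. Many of these lay near the filter level, and the change was -0.15 ± 0.16 (adjusted p = 0.567).

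Type VI was the class with the lowest median change with ablation, -0.90, and 4 of its 5 tested chains fell. That median depends on which chains of each class passed the filter. The falls of the fibrillar Col1a1, Col1a2 and Col3a1 were larger than that of any type VI chain. The classic type VI molecule holds the alpha-1, alpha-2 and alpha-3 chains. Col6a1 had 1.14, 1.25 and 1.56 in estradiol arrays, 0.42, 0.84 and 1.34 in ablation arrays and 1.62, 1.91 and 2.28 in sham arrays, and fell with ablation by 1.14 ± 0.09 (adjusted p = 7.20e-13). Col6a2 had -0.44, -0.08 and 0.26 in estradiol arrays, -1.19, -0.43 and -0.28 in ablation arrays and -0.40, 0.59 and 1.08 in sham arrays, and fell by 1.03 ± 0.15 (adjusted p = 1.77e-06). Col6a3 had 0.85, 1.02 and 1.40 in estradiol arrays, 0.11, 0.57 and 0.87 in ablation arrays and 1.12, 1.36 and 1.96 in sham arrays, and fell by 0.90 ± 0.09 (adjusted p = 3.86e-10). For Col6a1 and Col6a3 the ablation arrays lay below all sham arrays, and for Col6a2 a few overlapped. The second probe set of Col6a2 gave -0.46 (adjusted p = 0.321) and that of Col6a3 -0.44 (adjusted p = 0.011). Col6a6, a later-described chain that can stand in for alpha-3, had -2.12, -1.57 and -1.15 in estradiol arrays, -1.91, -1.28 and -0.97 in ablation arrays and -1.39, -0.54 and -0.21 in sham arrays. It fell by 0.71 ± 0.13 with ablation (adjusted p = 0.000138). Its relative Col6a5 did not pass the test, with a change of -0.28 ± 0.29.

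FACIT and other collagens moved in both directions. Among FACIT chains 1 of 6 tested fell and 2 rose with ablation. Col12a1, which coats type I fibrils, changed by -0.55 ± 0.18 (adjusted p = 0.0313), with 0 of 11 ablation arrays and 8 of 14 sham arrays above the filter level. With every value below that level raised to it, the change of Col12a1 was -0.10 and not called (adjusted p = 0.217), and the call was also lost without ablation replicate 1 (adjusted p = 0.065), ablation replicate 6 (0.0531) or sham replicate 1 (0.0567). Col9a2, a chain of the type IX collagen of cartilage, had -1.38, -0.98 and -0.67 in estradiol arrays, -1.02, -0.62 and -0.23 in ablation arrays and -1.70, -1.02 and -0.47 in sham arrays, and rose by 0.40 ± 0.12 (adjusted p = 0.0181). Col9a3, its partner chain, had -2.17, -1.80 and -1.57 in estradiol arrays, -1.94, -1.60 and -1.23 in ablation arrays and -2.41, -2.01 and -1.41 in sham arrays, and rose by 0.34 ± 0.12 (adjusted p = 0.0453). The arrays of both genes overlapped between groups, and Col9a3 lost its call in 18 of the 31 fits that left out 1 array (adjusted p up to 0.0954, without ablation replicate 3). Col9a3 exceeded the filter level in 8 of 11 ablation and 3 of 14 sham arrays. With every value below that level raised to it, the change of Col9a3 was 0.17 and not called (adjusted p = 0.0678). Col16a1 had -0.39, -0.21 and -0.08 in estradiol arrays, -0.57, -0.17 and 0.57 in ablation arrays and -0.37, 0.04 and 0.65 in sham arrays. Col22a1, known from tissue junctions, had -1.61, -1.19 and -1.0 in estradiol arrays, -1.59, -1.17 and -0.47 in ablation arrays and -1.23, -0.92 and -0.43 in sham arrays. These 2 genes and Col14a1 did not pass the test, with changes of -0.23, -0.17 and -0.15, although Col16a1 was called lower without ablation replicate 6 (adjusted p = 0.0281).

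Of the 6 other collagens tested, Col8a2 and Col23a1 rose with ablation and Col15a1 fell. Col8a2, a chain of the network-forming type VIII found in subendothelial and corneal matrices, had -0.95, -0.73 and -0.58 in estradiol arrays, -1.41, -0.93 and -0.50 in ablation arrays and -2.01, -1.42 and -1.10 in sham arrays. It rose by 0.53 ± 0.10 (adjusted p = 0.000225), and the call was lost when sham was limited to the 4 arrays so described (irradiated, adjusted p = 0.0507). Col23a1, a transmembrane collagen, had -0.53, -0.29 and -0.15 in estradiol arrays, -0.80, -0.36 and -0.16 in ablation arrays and -1.61, -0.62 and -0.50 in sham arrays, a change of 0.32 ± 0.11 (adjusted p = 0.033) that was lost in 7 of 31 fits without 1 array (adjusted p up to 0.0622, without ablation replicate 1). Both genes thus moved opposite to the called chains of types I, III, IV and VI, with overlapping ablation and sham arrays.

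The multiplexins carry an endostatin-like end and lie in basement membrane zones. Col15a1 had -0.18, 0.05 and 0.59 in estradiol arrays, -0.48, 0.19 and 0.80 in ablation arrays and 0.11, 0.47 and 1.20 in sham arrays, and changed by -0.41 ± 0.13 (adjusted p = 0.0252), a call that was lost without ablation replicate 6 (adjusted p = 0.0577) or 9 (0.0594). Col18a1, the source of endostatin, had 1.79, 2.12 and 2.39 in estradiol arrays, 1.24, 1.93 and 2.17 in ablation arrays and 1.49, 2.08 and 2.38 in sham arrays. Its change of -0.13 ± 0.11 did not pass the test (adjusted p = 0.427), and its other probe set gave -0.17. Col13a1, a transmembrane collagen of cell adhesion sites, had -2.80, -2.06 and -1.63 in estradiol arrays, -2.14, -1.70 and -1.40 in ablation arrays and -2.75, -1.49 and -0.95 in sham arrays, with a change of -0.25 ± 0.16. Col26a1 had -1.15, -1.02 and -0.87 in estradiol arrays, -1.45, -1.10 and -0.76 in ablation arrays and -1.25, -0.90 and -0.67 in sham arrays, with a change of -0.15 ± 0.09. Neither passed the test. Col10a1, the collagen of hypertrophic cartilage, had -3.13, -2.34 and -1.67 in estradiol arrays, -3.39, -2.10 and -1.59 in ablation arrays and -4.85, -2.54 and -1.71 in sham arrays. Col7a1, the anchoring fibril collagen of skin, had -4.60, -3.10 and -2.66 in estradiol arrays, -4.57, -3.23 and -2.08 in ablation arrays and -4.85, -2.30 and -1.95 in sham arrays. Both lie among the genes left untested.

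Estradiol on top of ablation gave few calls among collagens. Col6a1 and Col6a3 rose, Col3a1 fell, and 26 of the 29 did not pass the test. Among all genes tested, 0.729% were higher and 2.73% lower. That split depended on scaling, since 126 probe sets were higher and 1047 lower as deposited, 312 and 988 after quantile normalization, and 210 and 835 after median centring, while the collagen counts were 2 and 1 under each. Col6a1 was higher with estradiol by 0.49 ± 0.11 (SE, 6 against 11 arrays, adjusted p = 0.0035), and Col6a3 by 0.52 ± 0.11 (adjusted p = 0.00193), which are 1.40-fold and 1.44-fold. Col6a2 had a change of 0.46 ± 0.19 that did not pass the test (adjusted p = 0.171). The second probe set of Col6a3 gave 0.43 (adjusted p = 0.120). Col3a1 was lower by a log2 change of -0.40 ± 0.10 (adjusted p = 0.00679). The arrays of the 2 groups overlapped for all 29 collagens, and 0.738% of all genes tested had no overlap. The class median was 0.46 for type VI and -0.21 for fibrillar chains, beside -0.02 over all genes tested.

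The other fibrillar and type IV chains did not pass this test. Col1a1 changed by 0.19 ± 0.19 (adjusted p = 0.689), Col1a2 by -0.25 ± 0.13 (adjusted p = 0.312) and Col5a2 by -0.28 ± 0.11 (adjusted p = 0.139). Col4a1 changed by 0.02 ± 0.12 and Col4a2 by 0.05 ± 0.11. Without estradiol replicate 4, Col5a2 was called as well, so that 2 collagens were lower (adjusted p = 0.0462 for Col5a2). Of the 10 collagens with a pair of kept probe sets, both had the same sign in 10 for ablation against sham, but in 7 here, with Col1a1, Col4a6 and Col5a1 differing.

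Upstream regions of Col6a1 and Col6a3 are shown as those of the 2 collagens called higher with estradiol. Each line gives the 150 bases before the annotated start, on the gene's strand, at chr20:11905540-11905689 (plus strand) and chr9:98886959-98887108 (minus strand) of GRCr8. Neither window, nor the 250 bases before each start, held any of the 4 motifs searched on both strands. These were the TATA box spelled TATAAA, the box spelled CCAAT, the Sp motif spelled GGGCGG and the palindromic estrogen response element with 3 free bases at its centre.
Col6a1 upstream region: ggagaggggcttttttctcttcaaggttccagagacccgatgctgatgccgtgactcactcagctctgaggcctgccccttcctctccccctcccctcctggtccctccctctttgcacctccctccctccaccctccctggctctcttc
Col6a3 upstream region: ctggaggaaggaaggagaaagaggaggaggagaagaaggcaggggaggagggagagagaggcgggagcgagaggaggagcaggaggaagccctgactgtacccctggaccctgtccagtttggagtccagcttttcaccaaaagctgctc

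RefSeq promoters were found for 32 of the 41 collagen genes, and none for Col12a1, Col14a1, Col1a1, Col22a1, Col25a1, Col2a1, Col3a1, Col6a2 and Col9a3. In the 250 bases before the start, GGGCGG was present in 56.2% of the 32 collagen promoters and in 32.4% of all 27457 promoters. The CCAAT box was in 28.1% of collagen promoters and 34.3% of all, and the TATA box in 12.5% of collagen promoters and 13.1% of all. The palindromic estrogen response element was in 0 of the 32 and in 6 of all 27457 promoters. No motif contains another, and a match describes letters only.

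Within an array, a ratio of 2 genes does not depend on how that array was scaled. In all, 4 such ratios of type VI over fibrillar chains, chosen after their values were seen, were taken and are given without a test. Col6a1 over Col3a1 was higher by 0.89 ± 0.13 (SE, log2) with estradiol than with ablation alone. Measured from the ablation mean, the estradiol arrays ran from 0.53 to 1.09 and the ablation arrays from -0.47 to 0.30. Col6a3 over Col3a1 was higher by 0.92 ± 0.12, with estradiol arrays from 0.59 to 1.13 and ablation arrays from -0.36 to 0.38. In both ratios the groups did not overlap, which the choice of genes with opposite calls favours. The share of other gene pairs that separate in this way was not taken for any of the 4 ratios. Their separation is therefore no support for the calls. Col6a1 over Col1a2 differed by 0.74 ± 0.10, also without overlap (0.46 to 0.92 in estradiol arrays and -0.37 to 0.31 in ablation arrays). Col6a3 over Col1a2 differed by 0.78 ± 0.12 with overlap (0.58 to 1.03 in estradiol arrays and -0.54 to 0.64 in ablation arrays). Against sham, the 4 ratios were also higher with ablation alone, by 0.44, 0.68, 0.84 and 1.07 in the same order.

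**Figure D3:**
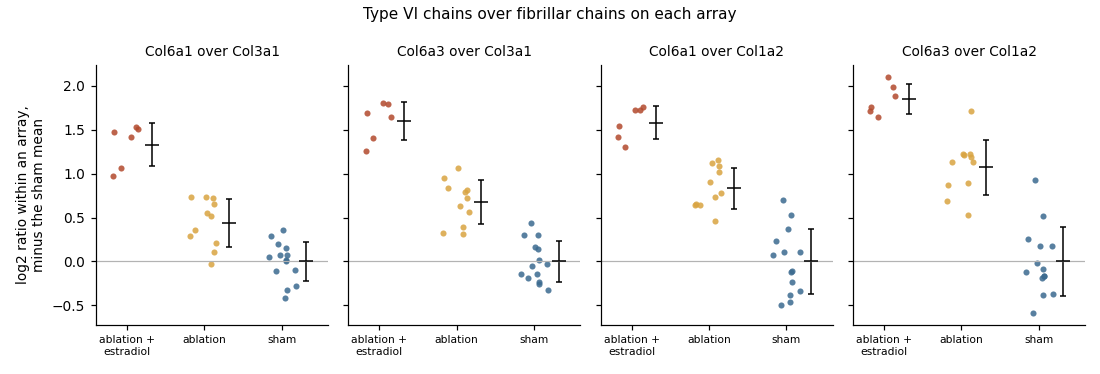
Log2 ratio of a type VI chain over a fibrillar chain within each array, measured from the sham mean (line at 0), for ablation plus estradiol, ablation and sham from left to right; points are arrays and bars are group means with SD. For Col6a1 over Col3a1 the estradiol arrays lie 0.97 to 1.53 above the sham mean and the ablation arrays -0.03 to 0.74. The ratios were chosen after their values were seen.

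Estradiol with ablation was also set against sham, where it shares the sham arrays with the first comparison and the estradiol arrays with the second. Here 10 collagens fell, 2 rose and 17 did not pass the test, against 11.9% lower and 5.28% higher of all genes tested. Of the probe sets called in this comparison, 28.5% were higher with values as deposited, 47.2% after quantile normalization and 36.9% after median centring, and the collagen counts were 10 and 2 under each. All 6 estradiol arrays lay below every sham array for 6 collagens (2.87% of all genes tested) and above every sham array for Col8a2 (0.835% of all genes). The changes were -2.44 for Col1a1, -2.23 for Col1a2, -1.98 for Col3a1, -1.04 for Col5a2, -0.94 for Col4a1 and -0.65 for Col6a1. Falls with overlapping arrays were -0.99 for Col6a6, -0.57 for Col6a2, -0.38 for Col6a3 and -0.65 for Col13a1 (adjusted p = 0.0207). Col8a2 rose by 0.66 ± 0.13 (adjusted p = 0.000194) and Col23a1 by 0.42 ± 0.13 (adjusted p = 0.026). Limiting sham to the 4 arrays whose description says irradiated ended the calls of Col6a2, Col6a3 and Col13a1, and the change of Col6a3 was then -0.33 (adjusted p = 0.166). Averaging all kept probe sets of a gene also ended the calls of Col6a2 (adjusted p = 0.522) and Col6a3 (adjusted p = 0.210). Leaving out 1 estradiol array ended the call of Col6a2 in 3 fits (adjusted p up to 0.0825, without replicate 3), of Col13a1 in 2 (up to 0.0945, without replicate 6) and of Col23a1 in 3 (up to 0.0711, without replicate 4).

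Chains of the same molecule or fibril were also compared among arrays of the same treatment, by the correlation of their deviations from the group mean over 31 arrays. For 8 pairs the p-values come from a permutation test of 100000 resamples within groups, adjusted over the 8 pairs by Benjamini and Hochberg, and all points share array-wide effects. Over all 406 pairs of the 29 collagens the median Pearson r was 0.05. Col6a1 and Col6a3 had r = 0.59 (permutation p = 0.00075, adjusted 0.00524) and rho = 0.56 (permutation p = 0.00184, adjusted 0.00653). Col6a1 and Col6a2 had r = 0.56 (p = 0.00131, adjusted 0.00524) and rho = 0.71 (p = 3e-05, adjusted 0.00024). Leaving out the 2 arrays farthest from the median of the first gene gave r = 0.58 and 0.62. Col6a2 and Col6a3 had r = 0.45 (adjusted permutation p = 0.0239), which did not pass after quantile normalization (r = 0.34) or median centring (r = 0.37).

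In types I and III, Col1a1 and Col3a1 had r = 0.49 and rho = 0.51 (adjusted permutation p = 0.0193 and 0.00982), and Col1a2 and Col3a1 had r = 0.42 and rho = 0.49 (adjusted 0.033 and 0.0104). Without the 2 farthest arrays r was 0.44 and 0.37. Col1a1 and Col1a2, the chains of 1 molecule, had r = 0.18 and rho = 0.22 (adjusted 0.397 and 0.280), and their r differed between groups, being 0.68 in estradiol arrays, 0.67 in ablation arrays and -0.25 in sham arrays, a difference that was not tested. Col4a1 and Col4a2 had r = 0.22 (adjusted 0.342) and Col5a1 and Col5a2 had r = -0.14 (adjusted 0.460). Neither pair passed the test.

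Genes that fold and modify collagen in the secretory pathway had 20 tested members. With ablation 11 fell and 1 rose, with a median of -0.35. Over all genes tested 12.8% were lower and 9.24% higher with a median of 0.00, which are also the shares beside the list counts that follow. Serpinh1, the collagen chaperone HSP47, changed by -0.90 ± 0.15 (adjusted p = 2.68e-05), Creb3l1, a transcription factor of the secretory pathway that acts on type I collagen, by -0.73 ± 0.09 (adjusted p = 1.88e-07), Fkbp10, a prolyl isomerase chaperone, by -0.62 ± 0.09 and Plod3, a lysyl hydroxylase, by -0.37 ± 0.08. P4ha2, the alpha subunit of a prolyl 4-hydroxylase, went the other way and rose by 0.71 ± 0.07 (adjusted p = 7.14e-10). With estradiol P4ha2 fell relative to ablation by 0.30 ± 0.09 (adjusted p = 0.0372), and it was the only member of the list called in that comparison.

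Of 8 tested genes for propeptide cleavage, crosslinking and assembly, 2 fell and none rose with ablation. Pcolce, which enhances removal of the propeptide from types I and III, changed by -1.80 ± 0.11 (adjusted p = 5.05e-16). Loxl1, a lysyl oxidase of elastin and collagen crosslinks, changed by -1.44 ± 0.34, from averages of -2.70 in ablation arrays and -1.26 in sham arrays, the first of which is below the filter level. Its estradiol average of -3.225 is below that level too. Loxl1 may have passed the filter through sham arrays, so its falls against sham are no support for the counts of this list. Lox, the main lysyl oxidase, rose with estradiol against ablation by 0.48 ± 0.12 (adjusted p = 0.00883), while the list had no other call there. Among 4 tested collagen receptors Ddr1, a receptor tyrosine kinase, rose by 0.42 ± 0.10 with ablation (adjusted p = 0.00196) and no other passed. In the basement membrane list of 15, 5 fell and 1 rose with ablation. Lamc3, Lama2, Lamb1 and Lamb2, all laminin chains, changed by -0.76, -0.69, -0.67 and -0.41, and Lama1 rose by 0.27. Hspg2, which encodes perlecan, changed by -0.44 ± 0.13 with estradiol against ablation (adjusted p = 0.0309).

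Transforming growth factor beta genes, a pathway that induces fibrillar collagens in many cells, had 14 tested members, of which 4 fell and 2 rose with ablation, against 12.8% lower and 9.24% higher of all genes. Ltbp3, a latent TGF-beta binding protein, changed by -0.86, Tgfb2, a ligand, by -0.65, Ltbp4 by -0.48 and Tgfbi, an induced matrix protein, by -0.40. Ccn2, a matricellular protein that the pathway induces, rose by 1.13 ± 0.10 (adjusted p = 9.17e-11) and Smad3, its signal transducer, by 0.45 ± 0.08. No gene of this list was called with estradiol against ablation. In the estradiol against sham comparison, where 5.28% of all genes were higher and 11.9% lower, 1 gene of the folding list was higher and 6 lower, 1 of the crosslinking list higher and 3 lower, 1 receptor higher (Ddr1) and 1 lower (Ddr2), and 7 basement membrane genes lower. There 2 TGF-beta genes were higher and 2 lower.

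**Figure D4:**
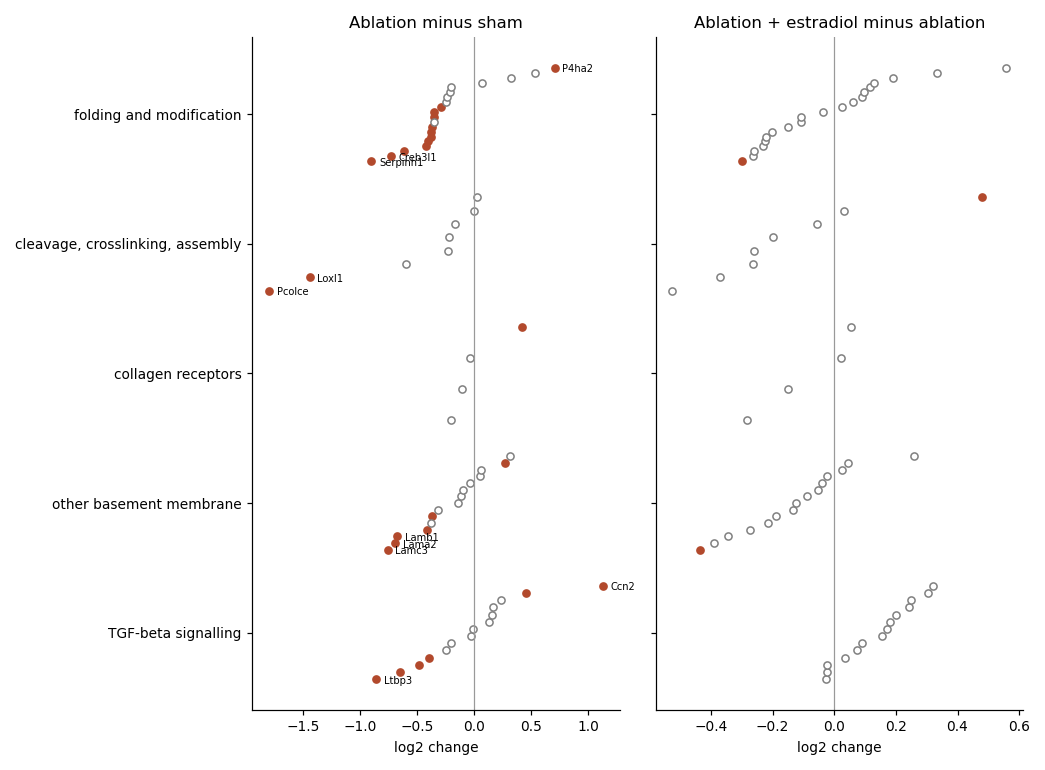
Log2 change of the tested genes of 5 collagen pathway lists, for ablation minus sham (left) and ablation plus estradiol minus ablation (right, on a narrower axis); each point is 1 gene, filled where called, and named where called with a change over 0.65 in size. Pcolce and Loxl1 have the lowest values with ablation, and Ccn2 and P4ha2 the highest. The ablation average of Loxl1 is below the filter level.

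Markers of the cell types in the testis were counted on the same arrays. The counts with ablation stand beside 12.8% lower and 9.24% higher of all genes tested. Of 10 tested markers of peritubular myoid and smooth muscle cells 6 fell with ablation, and their mean per array was -0.25 to 0.30 in estradiol arrays, 0.07 to 0.55 in ablation arrays and 0.45 to 0.99 in sham arrays. Tagln, a smooth muscle protein, changed by -1.07 and Actg2, smooth muscle actin, by -0.81. Acta2, Des, Smtn and Lmod1 were not called, with changes of -0.41, -0.24, 0.10 and 0.11. Of 11 fibroblast-like markers 4 fell with ablation, with means of 0.01 to 0.51 in estradiol arrays, 0.25 to 0.82 in ablation arrays and 0.94 to 1.32 in sham arrays. The largest change in this list was that of Igf1, -2.67 with ablation (adjusted p = 4.37e-21), which weighs on these means. Mfap5, Clec3b, Pi16, Thy1, Nr2f2, S100a4 and Gli1 were not called. Dpt, which binds fibrils, fell by 1.10 with ablation and by a further 1.14 with estradiol against ablation. Macrophage markers fell in 8 of 10 with ablation, with means of -0.10 to 0.36 in estradiol arrays, -0.18 to 0.42 in ablation arrays and 0.22 to 0.95 in sham arrays. Leydig markers fell in 6 of 9 and rose in 2 (Hsd3b1 and Lhcgr). Their means were 0.67 to 1.23 in estradiol arrays, 1.02 to 1.60 in ablation arrays and 2.41 to 3.15 in sham arrays. Sertoli markers rose in 4 of 8, and spermatogonial markers rose in 5 of 8 and fell in 1 (Kit). Endothelial markers fell in 2 of 8, and meiotic and postmeiotic markers rose in 1 of 6 (Sycp3). Sall4, Ret and Sycp3 averaged -3.75, -2.86 and -2.11 in sham arrays, below the filter level. They may have passed the filter through the other groups, so their rises are no support for these counts. The sham averages of Epcam and Sox3, -1.89 and -1.77, lay within the range of filter levels, so their rises also start near that level. With estradiol against ablation, where 0.729% of all genes were higher and 2.73% lower, 0 peritubular, endothelial, Sertoli and macrophage markers were called, 3 Leydig markers fell, 3 spermatogonial markers rose, 1 meiotic or postmeiotic marker fell, and 1 fibroblast-like marker rose (Igf1) and 1 fell (Dpt). Among tested meiotic and postmeiotic markers, only Prm1, Tnp1 and Odf1 averaged lower in estradiol than in ablation arrays. Their estradiol averages were -5.015, -5.92 and -2.09, below the filter level. As the filter may have been passed through other groups, that 1 fall is no support for these counts. The part of these marker shifts in the collagen results was not tested. The mean of the meiotic and postmeiotic markers alone was used as a covariate, and it holds no marker of the other cell types. With it, 12 of the 13 collagens that fell with ablation were still called, as were Col6a1, Col6a3 and Col3a1 with estradiol against ablation. For ablation against sham, Col15a1 and Col9a3 lost their calls (adjusted p = 0.0605 and 0.0942) and Col16a1 gained one (0.0324).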

How the data were processed

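Total RNA of rat testes was labelled with biotin and measured on 31 arrays. The deposited values are MAS5 signals that the authors placed on a logarithmic scale, read here as log2, per the submitters' processing notes. The log base, scaling and MAS5 version are not given in the sources used here. Values were used as deposited. Of 31099 probe sets, 57 controls were left out and 21269 passed the filter (40th percentile of the array, at least 6 arrays). Gene names came from the platform annotation.

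Groups were compared with limma 3.58.1 in R 4.3.3, in 1 fit of 31 arrays and 3 groups with a variance trend, 2-sided, with Benjamini-Hochberg adjustment over all kept probe sets. The pipeline was tested on simulated data. Correlations used Python 3.11.15 and scipy 1.17.1. The collagen members, classes and gene lists were chosen with earlier results of these data known. Genes with full values are those with a called log2 change of at least 1, the 4 of highest mean signal in each main class and the 2 highest in each other class. Of each collagen pathway list, the called genes with the smallest adjusted p for ablation against sham or estradiol against ablation are named. Any that went the other way there are named too. Marker lists are given mainly as counts, with a few genes named. Alternatives were other filters, normalizations, sham subsets, array weights, covariates, a replicate block and leaving out each array. The number of arrays limits the precision.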

Additional observations from a re-analysis of the deposited data

Results flagged for a closer look

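Col6a5 had a signal of -4.52 (log2) in estradiol replicate 4, where the other 5 estradiol arrays ran from -2.30 to -1.36, a gap that is large for a group of 6. Its gap to the nearest array was 0.703 of the group's range. The estradiol group was tested for 29 collagens in this way, and chance alone flags about 1 in 20 such groups. Col6a5 was not called in any comparison.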

How the results depend on the processing

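No called change of a collagen reversed its direction under any alternative. Of 3830 gene changes compared, 3731 kept their side of the threshold, 79 lost their call and 20 gained one. Of 48 pair correlations, 16 lost their call, 14 of them within single groups of 6 to 14 arrays. The number of collagens higher with ablation than sham was 4, but 0 when sham was limited to arrays described as irradiated, 2 when limited to those described as control, 1 with the replicate block, and 2 to 4 without 1 array. For estradiol against ablation, the replicate block gave 0 lower and 0 higher, against 1 and 2, with changes of -0.45 for Col3a1 (adjusted p = 0.0838), 0.47 for Col6a1 (0.0917) and 0.52 for Col6a3 (0.0667), and leaving out 1 array gave 1 to 2 lower and 2 higher. For estradiol against sham, the higher count of 2 became 1 with only the compared groups, sham limited to arrays described as control, the replicate block or without the 2 arrays at each end of the second component (chosen after seeing the data), and 1 to 2 without 1 array. The lower counts stayed at 9 to 14 for ablation and 7 to 10 for estradiol against sham. Nothing in the labels ties arrays of the same number, and their deviations had correlations of -0.086 to 0.047 over 11 pairs of ablation and sham arrays, -0.18 to 0.06 over 6 of estradiol and ablation, and -0.01 to 0.38 over 6 of estradiol and sham, where 3 were over 0.1. The causes were not tested.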
